A study of Mus musculus with 10 samples.

Results

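The 10 genes described here encode mouse proteins that bind the middle T antigen of polyomavirus, the oncoprotein that the MMTV-PyMT transgene places in the mammary epithelium. They were chosen by name for that binding and not by a rule on their values, though earlier results of these data were known. They comprise the Src family kinases Src, Yes1 and Fyn, the protein phosphatase 2A (PP2A) subunits Ppp2ca and Ppp2r1a and the adaptor Shc1. The others are the phosphoinositide 3-kinase (PI3K) subunits Pik3ca and Pik3r1, the phospholipase Plcg1 and the 14-3-3 gene Ywhaz. All 10 were present among the 23202 genes listed for sorted macrophages and the 19720 listed for whole tumors, and all 10 passed the filter of a mean of at least 1 CPM (counts scaled to a library total of 1e+06) in both tables.

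RNA was sequenced from macrophages sorted out of mammary tumors by F4/80 and CD11b, and from whole tumors, of mice 15 weeks old. The cKO mice had the genotype B6:MMTV-PyMT;Cxcr4fl/fl;LysmCre. The control mice were littermates with the same transgene and the same floxed Cxcr4 alleles but no Cre. Cxcr4 encodes the receptor of the chemokine CXCL12, and the LysM promoter drives Cre in myeloid cells, so the other cells of a cKO tumor were not targeted. Macrophage libraries came from 3 cKO mice (725, 746 and 867) and 3 control mice (706, 720 and 775), and whole-tumor libraries from 2 cKO mice (725 and 746) and 2 control mice (706 and 720) of the same 6. The labels speak of tumor pairs of like size but do not name the partners.

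Middle T is anchored in the membrane and has no enzymatic activity of its own. It takes the place of a regulatory subunit on the PP2A core of scaffold and catalytic subunit, and in this complex it binds and activates Src, Yes and Fyn, which then phosphorylate it on tyrosines that recruit Shc, PI3K (through its p85 subunit) and phospholipase C gamma, while a 14-3-3 protein binds at a phosphorylated serine. The 10 genes are host genes with roles in every cell type sampled here, and the transgene's own RNA was not analysed.

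Depth, read from the steps between low values, was 14.4 to 25.1 M reads (M, 1e+06) in sorted macrophages and 34.2 to 53.3 M reads in whole tumors. The targeted gene did not follow its label: Cxcr4 was at 41.9, 165.2 and 24.1 CPM in the macrophage libraries labelled cKO, against 14.4, 135.4 and 54.3 CPM in the controls, and at 47.9 and 57.6 CPM in the tumors labelled cKO, against 29.8 and 33.4 CPM in the control tumors. Lyz2, the gene whose LysM promoter drives Cre, was at 4.55, 1.35 and 7.31 CPM in the cKO macrophage libraries, against 3.10, 0.134 and 3.44 CPM in the controls, and at 0.0562 and 0 CPM in the cKO tumors, against 0.117 and 2.63 CPM in the control tumors. Below, cKO therefore stands for the libraries labelled cKO, whatever their Cxcr4 level. All 10 macrophage markers were read in every sorted library, with a sum of 1856 to 2659 CPM in those labelled cKO and 943 to 2343 CPM in controls, against 96.0 to 125 CPM in the 4 whole tumors. All 9 luminal epithelial markers were read as well, with sums of 3834 to 5550 CPM in sorted cells and 1259 to 1375 CPM in whole tumors, so the sorted libraries held epithelial RNA besides that of macrophages. Fibroblast markers summed to 1165 CPM in cKO 867 and 422 CPM in control 775 but to 57.2 to 137 CPM in the other 4 sorted libraries, and endothelial markers to 238 and 92.5 CPM in these same libraries and to 14.3 to 21.4 CPM in the others. The macrophage marker sum was lowest, 943 CPM, in control 775. The part of these cell types in the values below was not tested.

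Between genotypes, none of the 10 genes passed the test in macrophages or in whole tumors. Of the partner genes, Shc1 alone separated the macrophage groups, at 75.5 ± 1.46 CPM in libraries labelled cKO and 60.6 ± 4.83 CPM in controls (SD, n = 3 each). Groups did not overlap for 7.24% of all genes tested in macrophages and for 35.5% in tumors. Among the 10 partner genes, Pik3r1 had the lowest limma unadjusted p in tumors, at 1049 ± 46.1 CPM in those labelled cKO and 794 ± 93.0 CPM in controls (SD, n = 2 each). In tumors 5.85% of all genes tested had a limma unadjusted p under 0.05. The wider contrast lay between sorted macrophages and whole tumor of the same mice, in which gene of each family was read. Src, Yes1 and Fyn together made up 19.7% ± 3.58 of Src family level in macrophages and 61.6% ± 9.28 in whole tumors (SD, n = 4 mice), and Pik3ca 17.4% ± 2.71 of class I PI3K catalytic subunit level in macrophages and 42.8% ± 4.52 in whole tumors. With 4 mice that contrast could not reach a p under 0.125.

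Per kilobase of exon, the scale on which different genes can be set side by side, Ywhaz was the highest of the 10 in macrophages at 110 ± 10.5 CPM per kb, above Ppp2ca at 58.9 ± 7.83 CPM per kb, and the libraries of these genes did not overlap. Below them came Pik3r1 (44.9 ± 4.74 CPM per kb), Ppp2r1a (28.8 ± 7.25), Src (17.5 ± 4.97), Shc1 (12.1 ± 1.56), Pik3ca (8.26 ± 2.32), Yes1 (6.38 ± 2.42), Plcg1 (3.53 ± 1.39) and Fyn (2.10 ± 0.849; SD, n = 6). From Ppp2ca down, each gene's range overlapped that of the next gene. In whole tumors Pik3r1 stood at the top, at 91.4 ± 15.7 CPM per kb, with a range that overlapped that of Ywhaz at 86.3 ± 6.76 CPM per kb, and then came Ppp2ca (22.5 ± 3.91), Ppp2r1a (16.2 ± 2.96), Src (14.6 ± 2.39), Shc1 (9.26 ± 1.25), Pik3ca (8.95 ± 0.851), Yes1 (6.84 ± 1.61), Plcg1 (2.68 ± 0.511) and Fyn (1.52 ± 0.433; SD, n = 4). The ranges of neighbors in the tumor order were apart between Ywhaz and Ppp2ca, between Src and Shc1, between Yes1 and Plcg1 and between Plcg1 and Fyn. Ywhaz levels are as counted, and its place below Pik3r1 in tumors may depend on how reads were divided with Gm4202, a gene described below. Among the protein-coding genes tested (12696 in macrophages and 12100 in tumors), Ywhaz lay at percentiles 98.6 and 99.1 of level in macrophages and tumors, and Fyn at percentiles 31.1 and 29.9. The spread of log2 values between mice was ranked among all genes tested (16304 in macrophages and 14630 in tumors). In macrophages it lay at percentile 1.21 for Ywhaz, 2.17 for Pik3r1, 4.10 for Shc1 and 5.04 for Ppp2ca. The other partners lay between percentiles 23.99 (Ppp2r1a) and 47.3 (Plcg1) there. In tumors it lay at percentile 3.08 for Ywhaz and 4.997 for Pik3ca. The other partners lay between percentiles 12.34 (Shc1) and 36.48 (Fyn) in tumors. Genes of like level were not set beside them, so the part of level in these ranks was not tested.

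**Figure D1:**
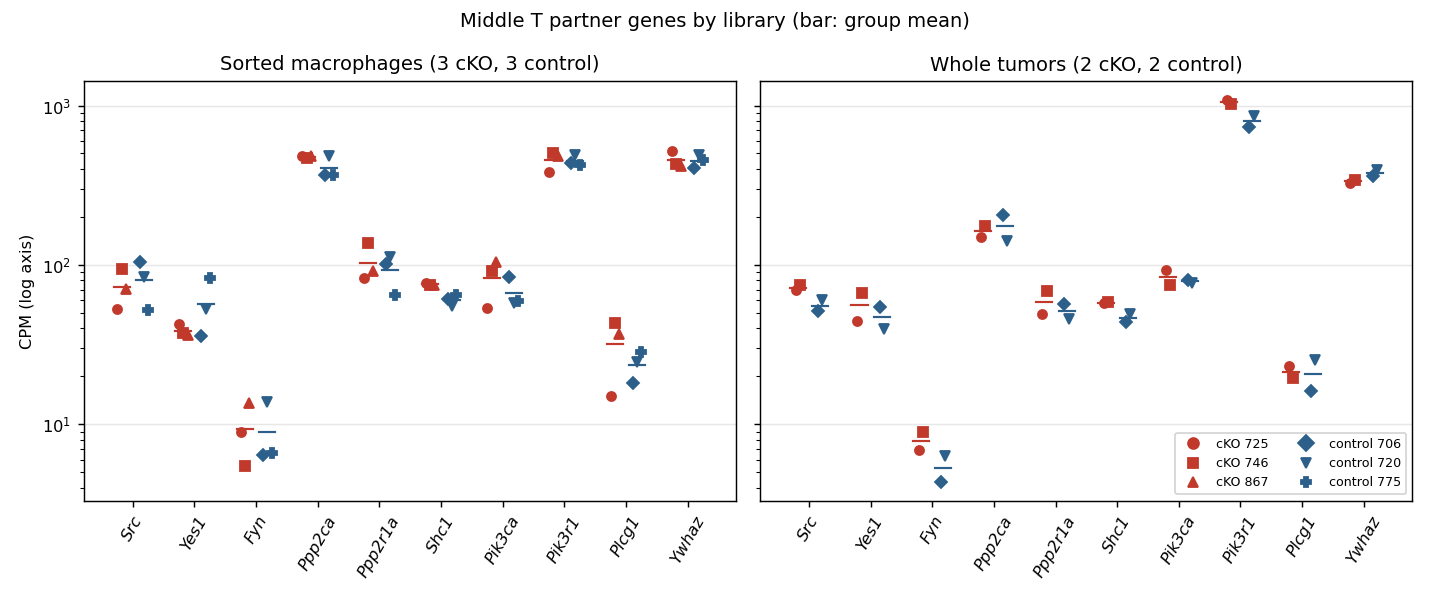
Level of the 10 middle T partner genes in CPM on a log axis, each point a library and each bar a group mean, with libraries labelled cKO left of controls. Groups overlap for 9 of 10 genes in the sorted macrophages (left panel), where Shc1 is the exception, and Pik3r1 and Ywhaz lie among the top levels in both panels. Over all genes tested in macrophages, 7.24% have groups that do not overlap.

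Src, Yes1 and Fyn are close relatives whose kinase activity is held down by a phosphorylated tyrosine in the tail of the protein, and middle T keeps Src active by binding it in a state without that phosphate. The last 48 coding bases of each gene, stop codon included, are shown with those of Lyn, a family kinase of myeloid cells described below. The tail tyrosine lies at the same distance from the stop in the partners and nearer to it in Lyn. They are from the GENCODE vM21 transcripts of GRCm38, on the coding strand, and the capitals mark the codon of the tail tyrosine.
Src: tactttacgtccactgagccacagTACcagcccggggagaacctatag
Yes1: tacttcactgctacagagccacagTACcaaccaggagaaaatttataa
Fyn: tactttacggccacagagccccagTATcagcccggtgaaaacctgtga
Lyn: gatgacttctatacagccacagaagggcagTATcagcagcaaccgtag
The codon lies 7 codons from the end in Src, Yes1 and Fyn, counting the stop, and 5 codons from the end in Lyn. Src differs from Fyn at 9 of the 48 positions, from Yes1 at 12 and from Lyn at 29. Positions were counted from the stop without alignment. The count for Lyn therefore includes the shift of its tyrosine codon and does not measure how alike the tails are. Yes1 and Fyn differ at 12 positions yet encode the same residues over these bases. Over the whole coding sequence, 70.7% of aligned bases were identical between Src and Yes1, 70.2% between Src and Fyn and 72.5% between Yes1 and Fyn. None of the 75-base stretches of the longest coding transcripts of Src, Yes1 and Fyn occurred in another gene's transcripts.

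Src (ENSMUSG00000027646, chr2:157418444-157471862, plus strand, GRCm38) encodes the kinase that gave the family its name. The macrophage libraries held 53.0, 93.9 and 70.2 CPM in cKO 725, 746 and 867, against 105, 84.0 and 52.1 CPM in control 706, 720 and 775. In whole tumors it was at 69.8 and 74.4 CPM in cKO 725 and 746, against 51.0 and 59.98 CPM in control 706 and 720. The macrophage groups overlapped over most of their range, and the tumor groups did not overlap, with cKO above control. The log2 difference of CPM + 1, cKO minus control, was -0.13 (SE 0.31, 95% interval -0.77 to 0.51) in macrophages and 0.38 (SE 0.25, -0.15 to 0.90) in tumors (limma adjusted p = 0.9998 and 0.855, Benjamini-Hochberg over all genes tested).

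Yes1 (ENSMUSG00000014932, chr5:32611171-32687057, plus strand) encodes a second kinase activated by middle T. It was at 42.3, 37.4 and 36.2 CPM in the cKO macrophage libraries, against 35.9, 53.2 and 82.6 CPM in the controls. The tumor libraries held 44.5 and 66.8 CPM in cKO, against 54.7 and 39.4 CPM in control. Control 775, which also had the lowest macrophage marker sum, held the highest macrophage value, and both pairs of groups overlapped. The differences were -0.48 (SE 0.33, 95% interval -1.16 to 0.20) in macrophages and 0.23 (SE 0.29, -0.39 to 0.85) in tumors (limma adjusted p = 0.9998 and 0.925), and without control 775 and cKO 867 the macrophage difference was -0.13. With single libraries left out it lay between -0.77 and -0.18. The -0.77, without control 706, had the one limma unadjusted p under 0.05 among 16 alternatives (0.0375), while the adjusted p stayed between 0.962 and 1.

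Fyn (ENSMUSG00000019843, chr10:39368855-39565381, plus strand), the third kinase, was the lowest of the 10 per kilobase in both tables. It was at 8.997, 5.45 and 13.5 CPM in cKO macrophages, against 6.46, 13.8 and 6.57 CPM in controls. Whole tumors gave 6.86 and 8.96 CPM in cKO, against 4.36 and 6.31 CPM in control. The tumor groups did not overlap, with cKO above, and the macrophage groups did. The differences were 0.05 (SE 0.57, 95% interval -1.14 to 1.24) in macrophages and 0.50 (SE 0.64, -0.85 to 1.85) in tumors (limma adjusted p = 0.9998 and 0.924), the widest intervals among the 10 genes in both tables. Yes1 and Fyn overlap noncoding or unclassified genes, and whether the authors' counting used strand is not given in the sources used here.

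Within the Src family the sorted libraries were read mainly as genes other than the middle T partners, with Lyn, a kinase of myeloid and B cells, in the largest single share. The family share, each gene's CPM per kb over the family sum of its own library, does not depend on how the tables were scaled. Src, Yes1 and Fyn together held 16.1%, 17.4%, 23.8% and 21.7% of the family in the macrophages of mice 725, 746, 706 and 720, against 60.7%, 74.95%, 56.2% and 54.5% in their whole tumors. The share was lower in macrophages in 4 of 4 mice, by a mean of -41.9 percentage points (SD 11.9, exact two-sided sign-flip permutation test over mice, p = 0.125, the smallest that 4 pairs allow, adjusted p = 0.143 over 8 families). In these bulk samples fewer cells of a type and less RNA per cell cannot be told apart. Over all 6 macrophage libraries Lyn held 46.1% ± 5.96 of the family (SD), and over the 4 tumor libraries 27.9% ± 5.51. Lyn was at 271, 311 and 182 CPM in cKO macrophages and 188, 239 and 128 CPM in control macrophages, and at 43.6 and 33.3 CPM in cKO tumors and 38.9 and 53.8 CPM in control tumors. Fgr, also a myeloid kinase, held 7.37% ± 2.27 in macrophages and 1.66% ± 0.669 in tumors, and Lck, a T cell kinase, 0.970% ± 0.833 and 6.03% ± 3.27, while Blk was in neither table. Src itself held 15.2% ± 3.39 of the family in macrophages and 39.1% ± 5.53 in tumors. The highest share of Src, Yes1 and Fyn in a sorted library, 36.9%, was in control 775, the library with the lowest macrophage marker sum, and the lowest, 16.1%, in cKO 725.

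**Figure D2:**
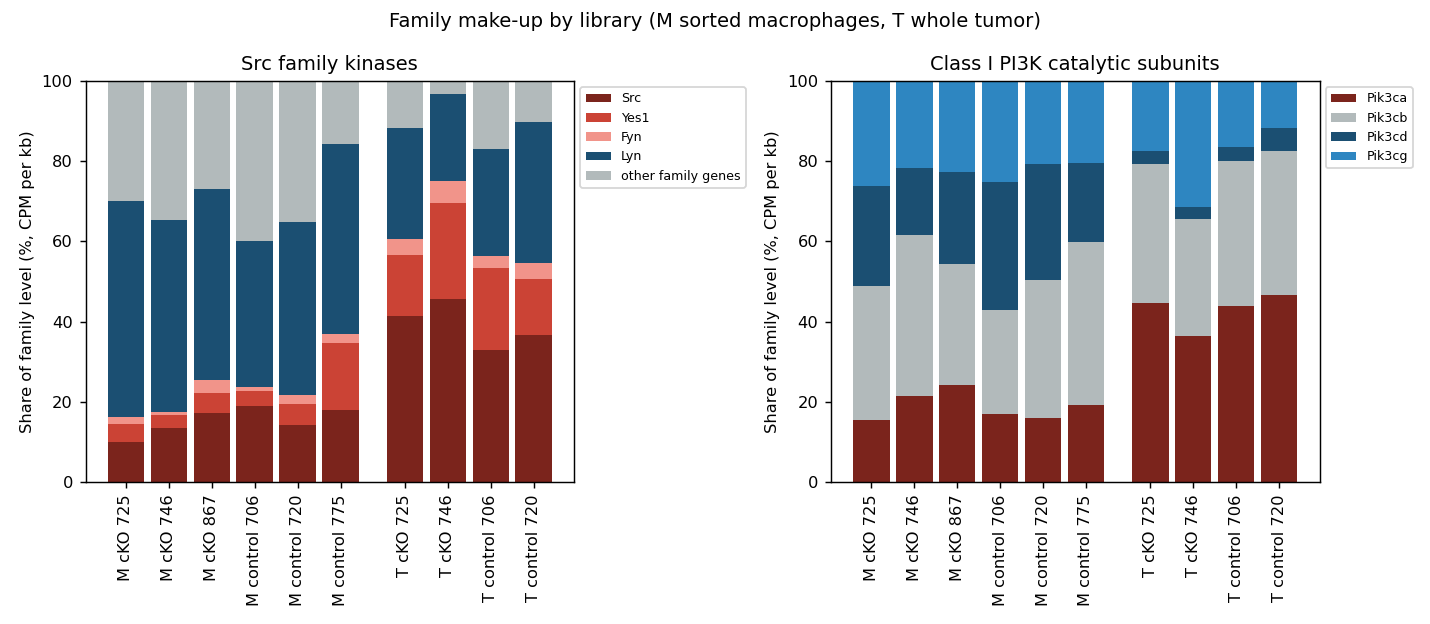
Share of each gene in the summed CPM per kb of its family, in percent, for Src family kinases (left, with genes other than Src, Yes1, Fyn and Lyn pooled) and class I PI3K catalytic subunits (right), with one stacked bar per library, macrophages (M) left of whole tumors (T). Src, Yes1 and Fyn, in reds, take 16.1% to 36.9% of the Src family bars in macrophages and 54.5% to 74.95% in whole tumors, and Pik3ca takes 15.5% to 24.3% of the PI3K bars in macrophages and 36.3% to 46.5% in whole tumors.

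Ppp2ca (ENSMUSG00000020349, chr11:52098681-52127778, plus strand) encodes the main catalytic subunit of PP2A, the phosphatase whose core middle T occupies. In macrophages it was at 484, 469.9 and 481.5 CPM in cKO, against 365, 479 and 366 CPM in control. Tumor levels were 149.6 and 176 CPM in cKO, against 207 and 142 CPM in control. The cKO macrophage libraries lay close together and above 2 of 3 controls, and the groups overlapped in both tables. The differences were 0.26 (SE 0.24, 95% interval -0.25 to 0.76) in macrophages and -0.08 (SE 0.22, -0.54 to 0.38) in tumors (limma adjusted p = 0.9998 and 0.967).

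The tails of Ppp2ca and of the other catalytic gene, Ppp2cb, are shown because they encode the same residues in different codons. The capitals mark the codon of the tyrosine near the end of the catalytic subunit, a site of regulation by phosphorylation.
Ppp2ca: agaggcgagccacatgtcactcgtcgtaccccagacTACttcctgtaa
Ppp2cb: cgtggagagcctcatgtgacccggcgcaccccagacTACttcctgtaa
These 48 bases differ at 8 positions and encode the same residues. Across the whole coding sequence 82.1% of aligned bases were identical while no 75-base stretch of the Ppp2cb transcript occurred in another gene and 0.384% of those of Ppp2ca did, none of them in Ppp2cb. Ppp2ca held 78.7%, 73.1%, 86.7% and 79.5% of the catalytic pair in the macrophages of mice 725, 746, 706 and 720, against 57.7%, 59.0%, 60.5% and 62.7% in their whole tumors. The share was higher in macrophages in 4 of 4 mice, by 19.5 percentage points (SD 5.30, exact sign-flip permutation p = 0.125, adjusted p = 0.143), and by 6.71 points without division by gene length.

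Ppp2r1a (ENSMUSG00000007564, chr17:20945311-20965916, plus strand) encodes the scaffold subunit that middle T contacts. Sorted macrophages gave 82.3, 136.5 and 91.3 CPM in cKO, against 102, 112 and 65.1 CPM in control. Tumor values were 48.9 and 68.5 CPM in cKO, against 57.2 and 46.0 CPM in control. Groups overlapped in both tables, with differences of 0.16 (SE 0.29, 95% interval -0.44 to 0.75) in macrophages and 0.17 (SE 0.28, -0.41 to 0.75) in tumors (limma adjusted p = 0.9998 and 0.948). Its share of the scaffold pair with Ppp2r1b was 88.3%, 88.8% and 88.0% in cKO macrophages, against 82.1%, 83.4% and 84.3% in control macrophages. The share groups did not overlap, with cKO higher by 5.14 percentage points, but the exact two-sided permutation test gave p = 0.1, the smallest that 3 against 3 allows (adjusted p = 0.8 over 8 families). Leaving out single libraries moved the difference between 4.55 and 5.67 points and, with the groups apart, could not turn its sign. Ppp2r1b was at 20.6, 32.5 and 23.5 CPM in cKO macrophages, against 42.0, 42.1 and 22.9 CPM in controls, which overlapped. Ppp2r1b shares bases with Sik2 on the other strand (41.6 CPM in macrophages), so part of its reads may belong to Sik2 if strand was not used. In tumors the Ppp2r1a share was 74.6% and 82.3% in cKO, against 77.0% and 72.3% in control, which overlapped. Against whole tumor, the Ppp2r1a share was higher in macrophages in 4 of 4 mice by 9.12 points (SD 4.03, exact sign-flip permutation p = 0.125, adjusted p = 0.143).

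Shc1 (ENSMUSG00000042626, chr3:89418443-89430027, plus strand) encodes the adaptor that carries the signal of a phosphorylated tyrosine on to Grb2, Sos and Ras. Macrophage values were 77.1, 74.3 and 75.1 CPM in cKO, against 61.5, 55.3 and 64.9 CPM in control. The tumor libraries held 57.7 and 58.5 CPM in cKO, against 43.9 and 48.9 CPM in control. The lowest cKO value lay above the highest control value in both tables, and the tables share 4 mice. The same held for 3.78% of all genes tested in macrophages and 21.2% in tumors, each table taken alone. The differences were 0.32 (SE 0.27, 95% interval -0.24 to 0.87) in macrophages and 0.32 (SE 0.26, -0.24 to 0.87) in tumors (limma adjusted p = 0.9998 and 0.878). Over all alternatives tried they ranged from 0.25 to 0.37 in macrophages and from 0.20 to 0.39 in tumors, while the adjusted p stayed between 0.760 and 1. With the groups apart, only the rescalings could have turned the sign, so the other alternatives were no check of it. Of the 75-base stretches of its transcript, 8.25% occurred in a single other gene, AC123951.1, which was at 4.20 CPM in macrophages and 0.151 CPM in tumors on average. Shc1 was the main Shc adaptor read, with 95.4% ± 3.36 of the family in 6 macrophage libraries and 89.2% ± 2.94 in 4 tumor libraries. The next, Shc4, held 3.28% ± 2.22 and 8.71% ± 2.64, and in control 706 macrophages Shc2, Shc3 and Shc4 were all listed at 0. The Shc1 share was higher in macrophages than in whole tumor in 4 of 4 mice, by 7.36 points (SD 5.54, exact sign-flip permutation p = 0.125, adjusted p = 0.143).

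Pik3ca (ENSMUSG00000027665, chr3:32397671-32468486, plus strand) encodes the alpha catalytic subunit of PI3K, which makes the lipid signal that recruits Akt kinases. The macrophage libraries held 53.5, 91.0 and 104.5 CPM in cKO, against 84.5, 57.8 and 59.0 CPM in control. Whole tumors gave 92.5 and 75.3 CPM in cKO, against 80.4 and 77.2 CPM in control. Groups overlapped in both tables, with differences of 0.27 (SE 0.30, 95% interval -0.35 to 0.89) and 0.08 (SE 0.23, -0.41 to 0.58) for macrophages and tumors (limma adjusted p = 0.9998 and 0.967). Leaving out single libraries moved the macrophage difference between 0.078 and 0.55. Its share of class I catalytic subunit level was 15.5%, 21.4%, 16.9% and 15.96% in the macrophages of mice 725, 746, 706 and 720, against 44.7%, 36.3%, 43.9% and 46.5% in their whole tumors. It was lower in macrophages in 4 of 4 mice, by a mean of -25.4 percentage points (SD 7.18, exact sign-flip permutation p = 0.125, adjusted p = 0.143). Pik3cd, the delta subunit of leukocytes, held 24.2% ± 5.71 of the family in 6 macrophage libraries and 3.86% ± 1.33 in 4 tumor libraries. It was at 59.4, 48.9 and 68.2 CPM in cKO macrophages and 110.2, 72.3 and 41.6 CPM in control macrophages, and at 4.72 and 4.18 CPM in cKO tumors and 4.24 and 6.65 CPM in control tumors. Pik3cb held 34.1% ± 5.68 and 34.0% ± 3.24, and the gamma subunit Pik3cg, also of leukocytes, 22.8% ± 2.37 and 19.3% ± 8.54, in macrophages and tumors.

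Pik3r1 (ENSMUSG00000041417, chr13:101680563-101768217, minus strand) encodes p85 alpha, the regulatory subunit through which PI3K docks on phosphorylated middle T. Tumor levels were 1081 and 1016 CPM in cKO 725 and 746, against 729 and 860.2 CPM in control 706 and 720. In macrophages it was at 380.1, 503 and 484 CPM in cKO, against 434, 492 and 425 CPM in control. The tumor groups did not overlap, with cKO above, and the macrophage groups did. The tumor difference was 0.40 (SE 0.17, 95% interval 0.05 to 0.76; limma unadjusted p = 0.0271, adjusted p = 0.819), the one interval of the 20 that did not include 0, and the macrophage difference was 0.0098 (SE 0.25, -0.50 to 0.52; limma adjusted p = 0.9998). Over the alternatives the tumor difference ranged from 0.29 to 0.52 and its adjusted p from 0.618 to 0.965, with an unadjusted p under 0.05 in 6 of 13. Protein-coding genes took 53.0% and 56.6% of reads in the cKO tumors, against 51.3% and 49.7% in the control tumors, and scaling to them left no partner gene with an unadjusted p under 0.05. Among the p85 type subunits Pik3r1 held 85.6% ± 4.05 of their level in macrophages and 90.1% ± 3.80 in tumors. Between macrophages and whole tumor the share differed by -2.64 points (SD 2.46, lower in 3 of 4 mice, exact sign-flip permutation p = 0.25). In tumors it was 94.4% and 91.9% in cKO, against 88.2% and 85.8% in control, which did not overlap (exact permutation p = 0.333, the smallest that 2 against 2 allows).

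Plcg1 (ENSMUSG00000016933, chr2:160731300-160775760, plus strand) encodes phospholipase C gamma 1, which releases the messengers that open calcium stores and activate protein kinase C. Sorted macrophages gave 15.1, 43.3 and 37.0 CPM in cKO, against 18.1, 24.4 and 28.2 CPM in control. Tumor values were 23.2 and 19.6 CPM in cKO, against 16.1 and 25.3 CPM in control. The cKO macrophages spanned a wider range than the controls, with 725 the lowest of all 6 libraries, and groups overlapped in both tables. The differences were 0.31 (SE 0.41, 95% interval -0.53 to 1.16) in macrophages and 0.07 (SE 0.39, -0.75 to 0.90) in tumors (limma adjusted p = 0.9998 and 0.984). The macrophage difference lay between 0.034 and 0.76 with single libraries left out. Plcg1 shares bases with the protein-coding gene Zhx3 on the other strand, at 20.4 CPM in macrophages and 26.8 CPM in tumors, so its reads cannot be told apart from those of Zhx3 if strand was not used. Its partner in the family, Plcg2, the form of blood cells, took 78.0% ± 6.18 of the pair in macrophages and 61.5% ± 1.57 in tumors. The Plcg1 share was 14.1%, 26.4%, 18.9% and 16.6% in the macrophages of mice 725, 746, 706 and 720, against 40.2%, 36.6%, 39.3% and 37.9% in their tumors. It was lower in macrophages in 4 of 4 mice, by a mean of -19.5 points (SD 6.67, exact sign-flip permutation p = 0.125, adjusted p = 0.143).

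Ywhaz (ENSMUSG00000022285, chr15:36770770-36796929, minus strand) encodes the zeta form of 14-3-3, a family of dimeric proteins that hold phosphoserine sites. Macrophage values were 516, 428 and 420.1 CPM in cKO, against 408, 493 and 453 CPM in control. The tumor libraries held 328 and 342 CPM in cKO, against 359 and 392.5 CPM in control. The tumor groups did not overlap, with cKO below, and the macrophage groups did. The differences were 0.0094 (SE 0.24, 95% interval -0.50 to 0.52) in macrophages and -0.16 (SE 0.17, -0.53 to 0.20) in tumors (limma adjusted p = 0.9998 and 0.904). The level of Ywhaz is uncertain, since 18.5% of the 75-base stretches of its transcript occurred in other genes, mainly Gm4202 (18.3%), which itself was listed at 479.8 CPM in macrophages and 161 CPM in tumors on average. As counted, Ywhaz held 17.97% ± 1.55 of the 14-3-3 family in macrophages and 23.1% ± 1.61 in tumors. Ywhae held 21.4% ± 2.89 and 24.9% ± 1.48, and Ywhaq 19.0% ± 3.61 and 21.1% ± 3.36, so no one form predominated. Sfn, the sigma form found in epithelia, was at 113, 169 and 161 CPM in cKO macrophages and 76.1, 155 and 81.0 CPM in control macrophages, and at 6.95 and 8.36 CPM in cKO tumors and 8.93 and 3.15 CPM in control tumors. Sfn was thus higher in the libraries sorted for macrophages than in whole tumors, as was the sum of the luminal markers given above. Among these markers, Krt8 and Cdh1 were higher in every sorted library than in any tumor. Epcam overlapped, at 339 to 616 CPM in sorted libraries and 330 to 462 CPM in whole tumors. The sums of the other epithelial marker lists were not higher in the sorted libraries. Basal markers summed to 12.98 to 48.5 CPM in sorted libraries and 42.8 to 78.5 CPM in whole tumors, and milk protein genes to 1624 to 4995 CPM and 4248 to 6437 CPM, with ranges that overlapped in both cases. As counted, the Ywhaz share was lower in macrophages in 4 of 4 mice, by a mean of -5.34 points (SD 1.71, exact sign-flip permutation p = 0.125, adjusted p = 0.143). This direction rests on how reads were divided with Gm4202. With all reads of Gm4202 added to Ywhaz, an alternative chosen after seeing the data, the share was 33.97%, 27.9%, 34.5% and 29.7% in the macrophages of mice 725, 746, 706 and 720, against 30.2%, 28.3%, 30.9% and 32.4% in their tumors. The mean difference was then 1.06 points (SD 3.19, higher in macrophages in 2 of 4 mice, exact sign-flip permutation p = 0.5).

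**Figure D3:**
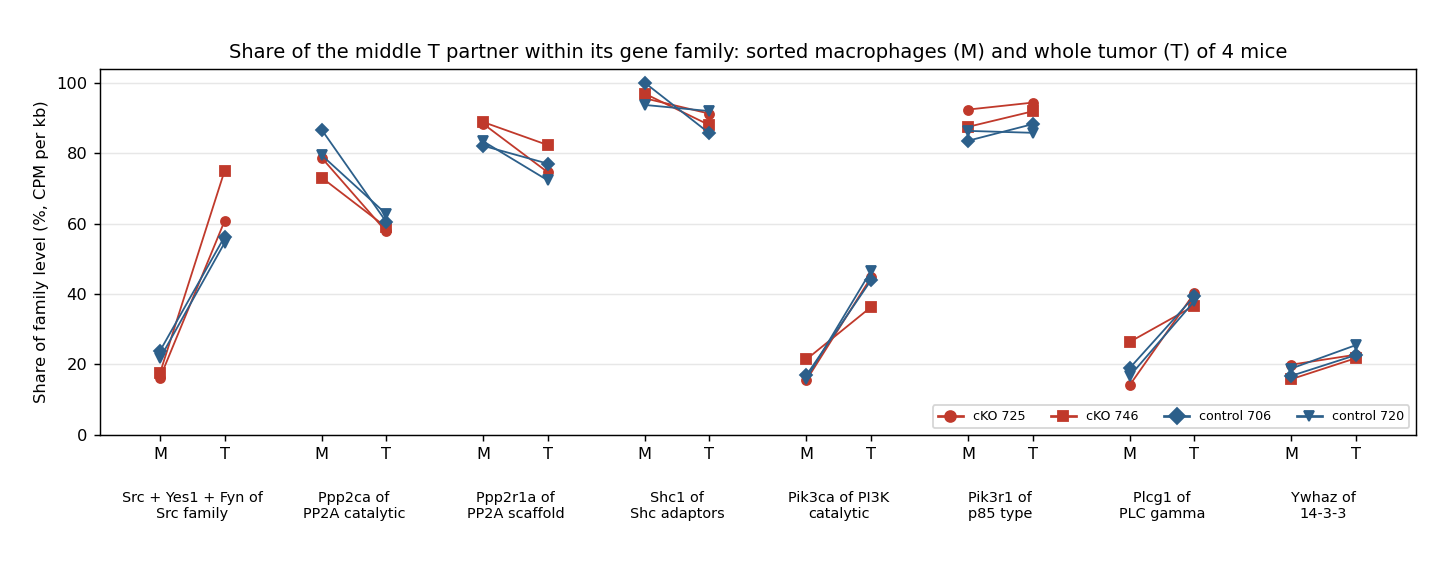
Share of the middle T partner within its gene family, in percent of the summed CPM per kb, in sorted macrophages (M) and whole tumor (T), with a line for each of the 4 mice that gave both libraries. The lines of 4 of 4 mice run the same way for 7 of 8 families, upward from M to T for Src with Yes1 and Fyn, Pik3ca, Plcg1 and Ywhaz and downward for Ppp2ca, Ppp2r1a and Shc1. Levels are as counted, and with the reads of Gm4202 added to Ywhaz its lines run both ways (2 of 4 mice each).

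As counted, the shares of 7 of 8 families differed in one direction in 4 of 4 mice, a number that falls to 6 when the reads of Gm4202 are added to Ywhaz, and the test could not take any of them below an adjusted p of 0.143. Leaving out single mice kept the sign of all 8 mean differences. For the 7 families with one direction in 4 of 4 mice it could not do otherwise, so only Pik3r1 was open to change. When the 8 libraries were treated as unpaired, with no replicate block for the mouse, the exact permutation test gave p = 0.0286 for 6 families (adjusted p = 0.0381), 0.0571 for Ppp2r1a (adjusted p = 0.0653) and 0.343 for Pik3r1. The 0.0286 is the smallest p that this test allows for 4 against 4, and the test sets aside that both libraries come from one mouse. Luminal, macrophage and Sfn RNA all differed between the kinds of library, and reads of protein-coding genes were 67.7% to 80.1% of the total in sorted libraries and 49.7% to 56.6% in whole tumors.

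The levels of single genes were set side by side across the separately normalized tables, without a test. Ppp2ca was higher in macrophages than in whole tumor by 1.42 log2 units (SD 0.42) and Ppp2r1a by 0.95 (SD 0.23), each in 4 of 4 mice. Pik3r1 was lower by a mean of -1.02 log2 units (SD 0.34), likewise in 4 of 4 mice. After scaling to protein-coding genes these differences were 0.88, 0.42 and -1.56, each still in 4 of 4 mice. Shc1 (0.35), Ywhaz (0.37), Src (0.36), Fyn (0.31) and Plcg1 (0.16) were higher in macrophages as deposited and lower when scaled to protein-coding genes (-0.18, -0.17, -0.17, -0.18 and -0.37), and Yes1 (-0.27 and -0.80) and Pik3ca (-0.21 and -0.75) had a negative mean on both scales. The Ywhaz values here are as counted, without the reads of Gm4202. Over all 13728 genes tested in both tables the median difference was 0.36 as deposited and -0.11 when scaled to protein-coding genes, and 34.4% and 19.0% of genes were higher in macrophages in 4 of 4 mice on these scales, while 11.4% and 25.4% were lower. Of 21 family genes in both tables that are not middle T partners, 10 were higher in macrophages in 4 of 4 mice on both scales, 1 was lower in 4 of 4 mice on both, and the other 10 did neither. The higher ones included Sfn (4.05 log2 units as deposited), Pik3cd (3.58), Fgr (3.58), Lyn (2.54), Plcg2 (1.56), Pik3cg (1.43), Ywhag (1.37), Pik3cb (1.04) and Ywhah (0.85). Pik3r3 was the lower one (-0.72 as deposited and -1.26 when scaled to protein-coding genes), and Lck was lower in 3 of 4 mice (-1.34 and -1.94).

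Counted together, the partner genes were set against all genes of each table. In macrophages 0 of 10 had a limma adjusted p under 0.05, where 0 of 16304 genes (0%) did, and 0 of 10 had an unadjusted p under 0.05, where 428 genes (2.63%) did. In tumors 0 of 10 passed, where 0 of 14630 genes (0%) did, and 1 of 10, Pik3r1, had an unadjusted p under 0.05, where 856 genes (5.85%) did. In macrophages 1 of 10 (Shc1) had groups that did not overlap, with cKO above, against 7.24% of genes (3.78% above and 3.45% below), and in tumors 5 of 10 did, Src, Fyn, Shc1 and Pik3r1 with cKO above and Ywhaz with cKO below, against 35.5% of genes (21.2% above and 14.3% below). Positive differences were found for 8 of 10 genes in either table, against 54.7% of genes in macrophages and 56.6% in tumors. This split depends on the scaling, with 5 of 10 positive in macrophages and 6 of 10 in tumors when scaled to protein-coding genes. The median difference of the 10 was 0.10 in macrophages and 0.20 in tumors, beside 0.05 and 0.09 over all genes tested.

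**Figure D4:**
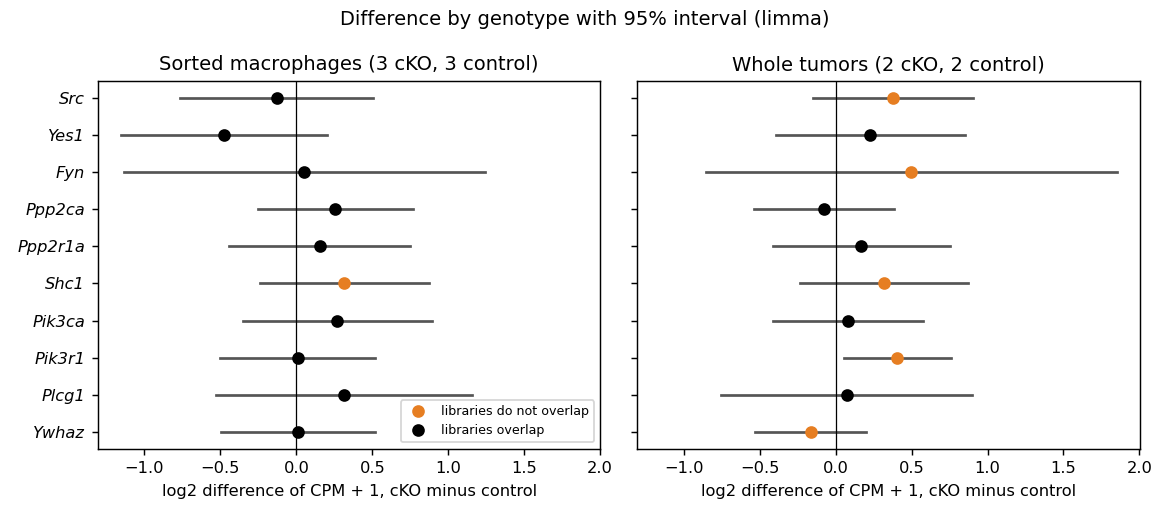
Difference of each partner gene in log2(CPM + 1), cKO minus control, with its 95% interval from limma, in sorted macrophages (left) and whole tumors (right), where orange points have groups that do not overlap. Of 20 intervals, that of Pik3r1 in tumors, 0.05 to 0.76, is the one that does not include 0.

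The wider pathways downstream of middle T were followed through 85 further genes in 8 lists, 80 of which were tested in macrophages and 79 in tumors. None passed the limma test in either table. In macrophages 0 of 80 had an unadjusted p under 0.05 (background 2.63%), 45 differences were positive and the median was 0.04. In tumors 13 of 79 did (background 5.85%), 11 with cKO higher and 2 with cKO lower, 49 were positive and the median was 0.18. Scaling to protein-coding genes left 7 with an unadjusted p under 0.05 in tumors, 4 higher and 3 lower, and 40 positive differences. Groups did not overlap for 7.50% of the tested pathway genes in macrophages and 50.6% in tumors, beside 7.24% and 35.5% of all genes.

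By list, the Src family kinases outside the partner list were all positive in macrophages (4 of 4, median 0.39) and all negative in tumors (4 of 4, median -0.32), with overlapping groups throughout. Genes that restrain or release Src (Csk, Pag1, Ptpn1, Ptpra, Cbl and Cblb) split 3 and 3 in macrophages (median -5e-05) and 4 positive against 2 negative in tumors (median 0.24). Other PP2A subunits and regulators were negative for 12 of 17 in macrophages (median -0.11) and for 10 of 17 in tumors (median -0.09). In macrophages Ppp2r5e, which encodes a regulatory subunit of the kind that middle T displaces, was at 47.8, 45.1 and 37.0 CPM in cKO, against 54.1, 54.5 and 53.9 CPM in control, a difference of -0.32 (SE 0.29). Ppp2r5d, of the same class, was at 15.4, 15.4 and 10.3 CPM in cKO, against 16.7, 19.2 and 15.6 CPM in control (-0.32, SE 0.44). Both had groups that did not overlap, and neither passed (limma adjusted p = 0.9998). In tumors Ppp2r5d had the opposite sign, at 18.5 and 11.9 CPM in cKO, against 4.86 and 10.5 CPM in control, with groups apart and a difference of 0.96 (SE 0.55, limma unadjusted p = 0.102, adjusted p = 0.833). Ppp2r5e was at 45.1 and 59.1 CPM in cKO tumors, against 54.2 and 68.3 CPM in control tumors, which overlapped (-0.23, SE 0.27, limma adjusted p = 0.909).

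The Shc, Ras and ERK cascade had 10 of 16 positive differences in macrophages (median 0.08) and 12 of 16 in tumors (median 0.29). Sos1, the exchange factor that Grb2 brings to Ras, was at 69.0, 68.7 and 70.8 CPM in cKO macrophages, against 103, 82.4 and 75.9 CPM in controls (-0.31, SE 0.27, limma adjusted p = 0.9998), with groups apart. Its tumor groups were apart the other way, at 138 and 117 CPM in cKO, against 104.4 and 112 CPM in control (0.23, SE 0.21, limma adjusted p = 0.887). In tumors Mapk3, which encodes the kinase ERK1, was at 33.3 and 37.8 CPM in cKO, against 11.1 and 19.0 CPM in control, a difference of 1.23 (SE 0.38, limma unadjusted p = 0.0051, adjusted p = 0.760). The other class I PI3K subunits had 5 of 7 positive in macrophages (median 0.11) and 3 of 6 in tumors (median -0.08). Pik3cg was at 33.4 and 60.6 CPM in cKO tumors, against 28.1 and 17.9 CPM in control tumors (0.97, SE 0.36, limma adjusted p = 0.819). Pik3r3, which encodes the p55 gamma regulatory subunit, was at 28.5 and 38.4 CPM in cKO tumors, against 46.9 and 72.8 CPM in control tumors (-0.80, SE 0.31, limma adjusted p = 0.819). Its sign was opposite to that of Pik3r1 in the same tumors.

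Effectors and lipid phosphatases of the PI3K pathway had 9 of 16 positive in macrophages (median 0.03) and 11 of 16 in tumors (median 0.24). The phospholipase and calcium list was positive for 6 of 8 in macrophages (median 0.11) and for 8 of 8 in tumors (median 0.64). Scaling to protein-coding genes left 6 of 8 positive in tumors (median 0.52). An unadjusted p under 0.05 in tumors (background 5.85%) was reached by 3 of 8 genes of this list, by 1 of 8 after that scaling, by 2 of 16 in each of the PI3K effector and the Shc, Ras and ERK lists, by 2 of 6 in each of the class I PI3K and 14-3-3 lists, by 1 of 6 Src regulators, by 1 of 17 PP2A genes and by 0 of 4 Src family kinases. Prkca, a protein kinase C that Plcg1 products activate, was at 170.3 and 185 CPM in cKO tumors, against 117 and 101 CPM in control tumors, a difference of 0.70 (SE 0.20, limma unadjusted p = 0.0032, adjusted p = 0.717). The other 14-3-3 genes were positive for 3 of 6 in macrophages (median 0.05) and 4 of 6 in tumors (median 0.15). In the same tumors, fibroblast markers summed to 332 and 445 CPM in cKO, against 595 and 704 CPM in control, and basal epithelial markers to 78.5 and 70.3 CPM in cKO, against 42.8 and 51.8 CPM in control, and their part in these differences was not tested.

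**Figure D5:**
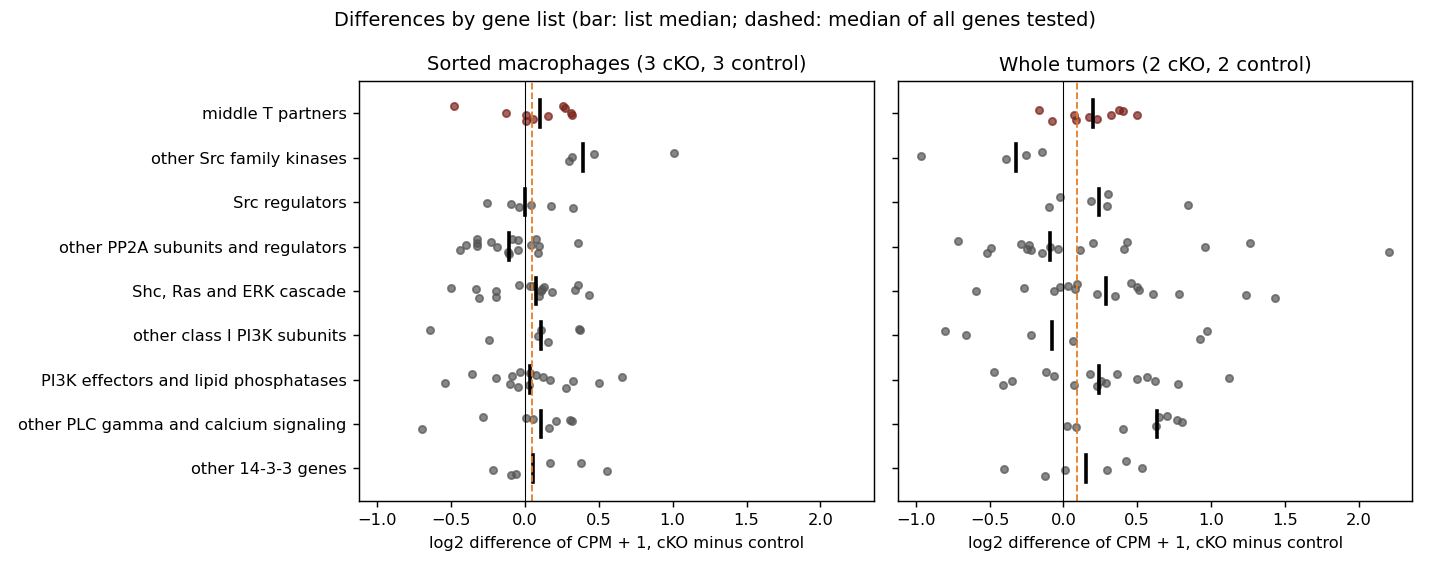
Differences in log2(CPM + 1), cKO minus control, of the 10 partner genes (top row) and the 8 pathway lists in sorted macrophages (left) and whole tumors (right), with a point per gene, a bar at the list median and a dashed line at the median of all genes tested. The Src family kinases outside the partner list have a median of 0.39 in macrophages and -0.32 in tumors, and the phospholipase and calcium list a median of 0.64 in tumors.

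Among the 10207 genes tested in both tables whose spread was at least that of Src, those whose values followed Src most closely over the 10 libraries were Pkm, a pyruvate kinase of glycolysis, with a root mean square difference of 0.104 log2 units after centring each gene on its table mean, 2510039O18Rik with 0.116, and Sf3b3, a splicing factor subunit, with 0.131. The spread of Src itself by the same measure was 0.324. These genes are the closest of many searched, and whether they lie closer than such a search would find for another gene was not tested.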

How the data were processed

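Reads were processed with STAR 2.7.8a and Partek on the mouse build GRCm38 (mm10), per the submitters' processing notes. A kit that blocks ribosomal RNA was used for the libraries, per the labels' protocols. The annotation, the strand setting and the alignment settings are not given in the sources used here. The deposited values are log2(CPM + 1), as shown by library sums of 1e+06 after the logarithm was undone. Tests planned on linear values plus 1 CPM need that same scale, so no further logarithm was taken. Between 83.9% and 89.7% of low values came out as whole reads within a tolerance of 0.1 read, under the 95% set for a count test, so none was run.

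Genes averaging at least 1 CPM were compared, cKO minus control, within each table by limma 3.58.1 (R 4.3.3; lmFit, then trended eBayes), and p-values were adjusted by the Benjamini-Hochberg method over all genes tested (threshold 0.05). Each library of a table is from a different mouse, so p-values measure the spread between mice. The fit was also run on simulated data, but the size of change it could recover is not given here. Differences are on the log2(CPM + 1) scale and understate the changes of low genes. Family shares are percent of the summed CPM per kb of the union of exons, tested within mouse by exact two-sided sign flips and between genotypes by exact permutation (Python 3.11.15, scipy 1.17.1). The mouse numbers pair macrophage and tumor libraries of the same animal. Exon lengths, positions and coding sequences come from GENCODE vM21 (GRCm38) by gene identifier. Of the matched genes, 2.19% in macrophages and 2.29% in tumors had the start of that annotation. The other listed starts differed from it, and whether the build or the annotation behind the values is another one was not tested. The gene models counted may thus differ from those that gave the exon lengths, a limit on values per kb and on family shares.

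The partner genes and the lists were chosen with earlier results of these data known. Named are all partner genes, the genes of their families, up to 4 pathway genes per table past the threshold, up to 4 per table with groups apart and a mean of at least 5 CPM, by the lowest p, and the 3 genes most like Src. A gene that the rule picked in macrophages and a gene of the Src family are not reported here. Alternatives were pseudocounts of 0.1 and 5 CPM, a filter at 5 CPM or none, rescaling by trimmed means (TMM), by median ratios or to protein-coding genes, eBayes without the trend, library weights, the 4 mice with both libraries, other length scales, no block for the mouse, each library left out and, added after seeing the data, the reads of Gm4202 counted as Ywhaz.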

Additional observations from a re-analysis of the deposited data

How the results depend on the processing

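In tumors the count of genes past the threshold was 0 under every alternative tried, and in macrophages it was 0 except for 2 among the 4 mice with a tumor library and a range of 0 to 3 when single libraries were left out (1 without cKO 867, 1 without control 706, 3 without control 775). None of the 10 partner genes passed under any alternative, with adjusted p from 0.962 to 1 in macrophages and from 0.618 to 0.998 in tumors. Small differences changed sign, and the cause was not tested. In macrophages Pik3r1 was at -0.014 (TMM), -0.018 (median ratio), -0.054 (protein-coding scaling), -0.027 (library weights) and -0.079 (4 mice), Ywhaz at -0.014 (TMM), -0.019 (median ratio) and -0.055 (protein-coding scaling), Fyn at -0.00086 (protein-coding scaling) and -0.39 (4 mice), Ppp2r1a at -0.0081 and Pik3ca at -0.0018 (4 mice). In tumors Pik3ca was at -0.035 and Plcg1 at -0.039 with protein-coding scaling, and Plcg1 at -0.0038 with median ratios. With single libraries left out, macrophage differences ranged from -0.41 to 0.089 for Src, -0.23 to 0.38 for Fyn, -0.079 to 0.30 for Ppp2r1a, -0.066 to 0.13 for Pik3r1 and -0.085 to 0.075 for Ywhaz, and tumor differences from -0.060 to 0.52 for Yes1, -0.35 to 0.19 for Ppp2ca, -0.069 to 0.41 for Ppp2r1a, -0.065 to 0.23 for Pik3ca and -0.23 to 0.38 for Plcg1. Shares compared between genotypes ranged, in macrophages, from -6.67 to 4.71 points for Ppp2ca (0.17 without length), -0.55 to 4.45 for Shc1, -0.98 to 5.92 for Plcg1 and -1.48 to 0.58 for Ywhaz, and in tumors from -0.080 to 7.66 for Ppp2r1a, -2.35 to 3.96 for Shc1 and -1.98 to 1.62 for Plcg1. Levels in macrophages minus tumor turned to -0.17 for Src, -0.18 for Fyn, -0.18 for Shc1, -0.37 for Plcg1 and -0.17 for Ywhaz (as counted) with protein-coding scaling, and Plcg1 ranged from -0.16 to 0.40 with single mice left out. With no replicate block for the mouse, the share differences of -41.9 (Src family), 19.5 (Ppp2ca), 7.36 (Shc1), -25.4 (Pik3ca), -19.5 (Plcg1) and -5.34 points (Ywhaz) had an adjusted p of 0.0381 by the exact permutation test. That test sets aside the pairing by mouse, and its unadjusted p of 0.0286 is the smallest that 4 against 4 allows. With the reads of Gm4202 added to Ywhaz, an alternative chosen after seeing the data, the Ywhaz share difference turned to 1.06 points. Between genotypes a separate limit holds: No paired analysis was possible because the labels do not name the partners of the tumors matched in size. At these depths a listed 0 allows up to 0.119 to 0.208 CPM in macrophages and 0.0563 to 0.0878 CPM in tumors (3 reads, counting error only).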
